A study of Mus musculus with 30 samples.

Results

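The genes described here encode the secreted WNT ligands, their Frizzled receptors and LRP co-receptors, the secreted antagonists of the SFRP and DKK families, the AXIN scaffolds and the TCF/LEF transcription factors. They were chosen by gene symbol alone, and 45 of the 20889 symbols in the table of expression values fitted: 19 Wnt ligands, 10 Frizzled receptors, 2 co-receptors, 8 antagonists, 2 scaffolds and 4 transcription factors. WNT proteins bind a Frizzled receptor together with LRP5 or LRP6, which stops the AXIN complex from marking beta-catenin for destruction, and beta-catenin then acts in the nucleus with TCF/LEF factors. SFRP proteins bind WNTs outside the cell, and DKK proteins of the DKK1 type block the LRP co-receptors. In the testis, WNTs made by somatic cells and by germ cells are known to act on spermatogonial stem and progenitor cells, and ligands such as WNT5A can also signal without beta-catenin.

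The cells came from testes of C57BL/6 mice on postnatal day 0, 7, 12 or 14 (P0, P7, P12 and P14), and their RNA was sequenced. Magnetic beads enriched cells with THY1, a surface protein of undifferentiated spermatogonia, at P0, P7, P12 and P14, or cells with KIT, the receptor that marks differentiating spermatogonia, at P7, P12 and P14. Fluorescence sorting gave GFP-positive cells of OCT4-GFP mice at P0 and P7 and of ID4-GFP mice at P7, mice that carry a reporter for a gene of early germ cells; the labels do not give the promoter elements that drive the GFP. A further group carries the label P7 VASA THY1, but VASA-GFP mice appear in the protocol with P0 cells alone, so the age and selection of that group are uncertain. The THY1 columns of P0, P7 and P12 and the KIT columns of P7 and P12 each stood for 2 libraries, and the 3 GFP columns, both P14 columns and P7 VASA THY1 for 1 library each; the labels do not say how many animals were pooled.

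The deposited table holds 1 value per gene and group, in FPKM, fragments scaled by transcript length and by library size, which sets levels of different genes on a scale per length. With 1 value per group there is no check against replicates, no test was possible, and each comparison describes these columns only. Columns were compared by subtracting log2(FPKM + 1), which makes differences of weakly expressed genes look smaller. A gene was counted as higher or lower at 2-fold or more on this scale, which is a log2 difference of 1, if the larger of both levels reached 2 FPKM. Read depth is not part of the FPKM values, so the error of a single value is unknown.

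All columns held germ cell RNA, and they differed in RNA of other testis cells. The summed level of 8 germ cell markers was lowest in P0 THY1, at 736 FPKM, and highest in P14 KIT, at 2306 FPKM. The sum of 10 fibroblast and stromal markers lay between 26.9 FPKM in P7 ID4-GFP and 7091 FPKM in P0 THY1, and that of 11 Sertoli cell markers between 18.6 FPKM in P7 ID4-GFP and 1379 FPKM in P12 THY1. The sum of 8 Leydig cell markers ran from 3.85 FPKM in P7 ID4-GFP to 1136 FPKM in P7 KIT, that of 8 peritubular myoid markers from 10.8 to 1423 FPKM, that of 8 endothelial markers from 7.65 to 211 FPKM and that of 9 macrophage markers from 3.92 to 380.2 FPKM. No gene of these lists was listed at 0 in any column. In such bulk samples fewer cells of a type and less RNA per cell cannot be told apart.

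Promoter sequences of 4 members are shown first, chosen because their RNA followed different patterns over the groups: Sfrp2 was highest in GFP-sorted cells, Wnt4 and Fzd4 reached their highest levels in bead-enriched cells, and Wnt5b was above 2 FPKM in every column. Each is the stretch of 250 bases before an annotated transcription start, from the RefSeq promoter table on mouse build GRCm38.p6, read 5′ to 3′ on the strand of the gene. Capitals mark matches to the GC box GGGCGG or its reverse complement CCGCCC, and to the TCF/LEF letters CTTTGAT or CTTTGAA on either strand; overlapping matches run together. The Sfrp2 window is chr3:83766071-83766320 on the plus strand, the Wnt4 window chr4:137277385-137277634 on the plus strand, the Fzd4 window chr7:89404116-89404365 on the plus strand, and the Wnt5b window, one of 3 in the table for that gene, chr6:119449387-119449636 on the minus strand.
Sfrp2: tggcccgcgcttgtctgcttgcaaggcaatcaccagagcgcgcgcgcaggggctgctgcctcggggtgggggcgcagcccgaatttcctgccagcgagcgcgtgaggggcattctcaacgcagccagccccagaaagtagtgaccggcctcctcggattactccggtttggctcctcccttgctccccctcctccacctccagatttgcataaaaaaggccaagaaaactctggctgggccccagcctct
Wnt4: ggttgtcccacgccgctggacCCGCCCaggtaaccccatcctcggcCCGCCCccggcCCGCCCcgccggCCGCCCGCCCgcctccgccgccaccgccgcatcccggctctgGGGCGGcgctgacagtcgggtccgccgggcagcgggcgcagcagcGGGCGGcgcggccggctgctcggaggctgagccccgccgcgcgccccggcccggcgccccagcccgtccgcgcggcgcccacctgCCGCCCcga
Fzd4: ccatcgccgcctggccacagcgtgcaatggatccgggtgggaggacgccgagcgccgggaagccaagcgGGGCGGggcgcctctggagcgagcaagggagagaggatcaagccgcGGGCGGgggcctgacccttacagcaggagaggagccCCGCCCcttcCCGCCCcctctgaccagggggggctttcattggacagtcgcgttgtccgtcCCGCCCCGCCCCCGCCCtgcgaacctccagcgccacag
Wnt5b: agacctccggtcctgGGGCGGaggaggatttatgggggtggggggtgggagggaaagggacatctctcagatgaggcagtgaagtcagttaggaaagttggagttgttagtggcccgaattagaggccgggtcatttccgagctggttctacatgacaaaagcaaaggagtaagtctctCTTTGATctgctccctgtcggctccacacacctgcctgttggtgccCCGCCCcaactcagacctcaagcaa

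These windows differ in base composition, with 85.2% G and C in Wnt4, 72.8% in Fzd4, 63.6% in Sfrp2 and 55.6% in Wnt5b. The Wnt5b window holds CTTTGAT at bases -71 to -65 from the start. It is the only one of the 3 Wnt5b windows with TCF/LEF letters. The others had 75.2% and 53.2% G and C, so both traits depend on the start that was printed. The Sfrp2 window holds none of the letters searched, which says only that they are not in these bases. Of the 45 members, 30 had a window in the table, with 38 windows in all. Their median G and C content was 67.4%, against 52.4% over all 32851 windows, and GGGCGG was present on either strand in 28 of the 38, against 32.7% of all windows. CTTTGAT was present in windows of 2 members, Wnt5b and Wnt11, against 3.21% of all windows, and CTTTGAA in that of Dkk1 alone, against 4.46% of all windows. A match describes the letters and is not evidence of binding.

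Most members were expressed at low to moderate level. Of the 45 members, 25 reached 5 FPKM in at least 1 column, a share of 55.6% against 58.7% of all genes in the table, and 17 stayed at 1 FPKM or more in every column. The 9 members under 1 FPKM everywhere were 7 ligands (Wnt7a, Wnt9b, Wnt3a, Wnt10b, Wnt8b, Wnt8a and Wnt1) and the antagonists Dkk1 and Dkk4, of which Dkk4 was listed at 0 in 7 columns. Wnt3a, a ligand widely used to activate beta-catenin signalling, did not exceed 0.422 FPKM. P0 THY1 held the highest level of 19 of the 45 members, against 28.9% of the 19488 genes above 0 in any column. The next columns were P7 OCT4-GFP with the highest level of 5 members and P12 KIT with 4, while P7 KIT held none.

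**Figure D1:**
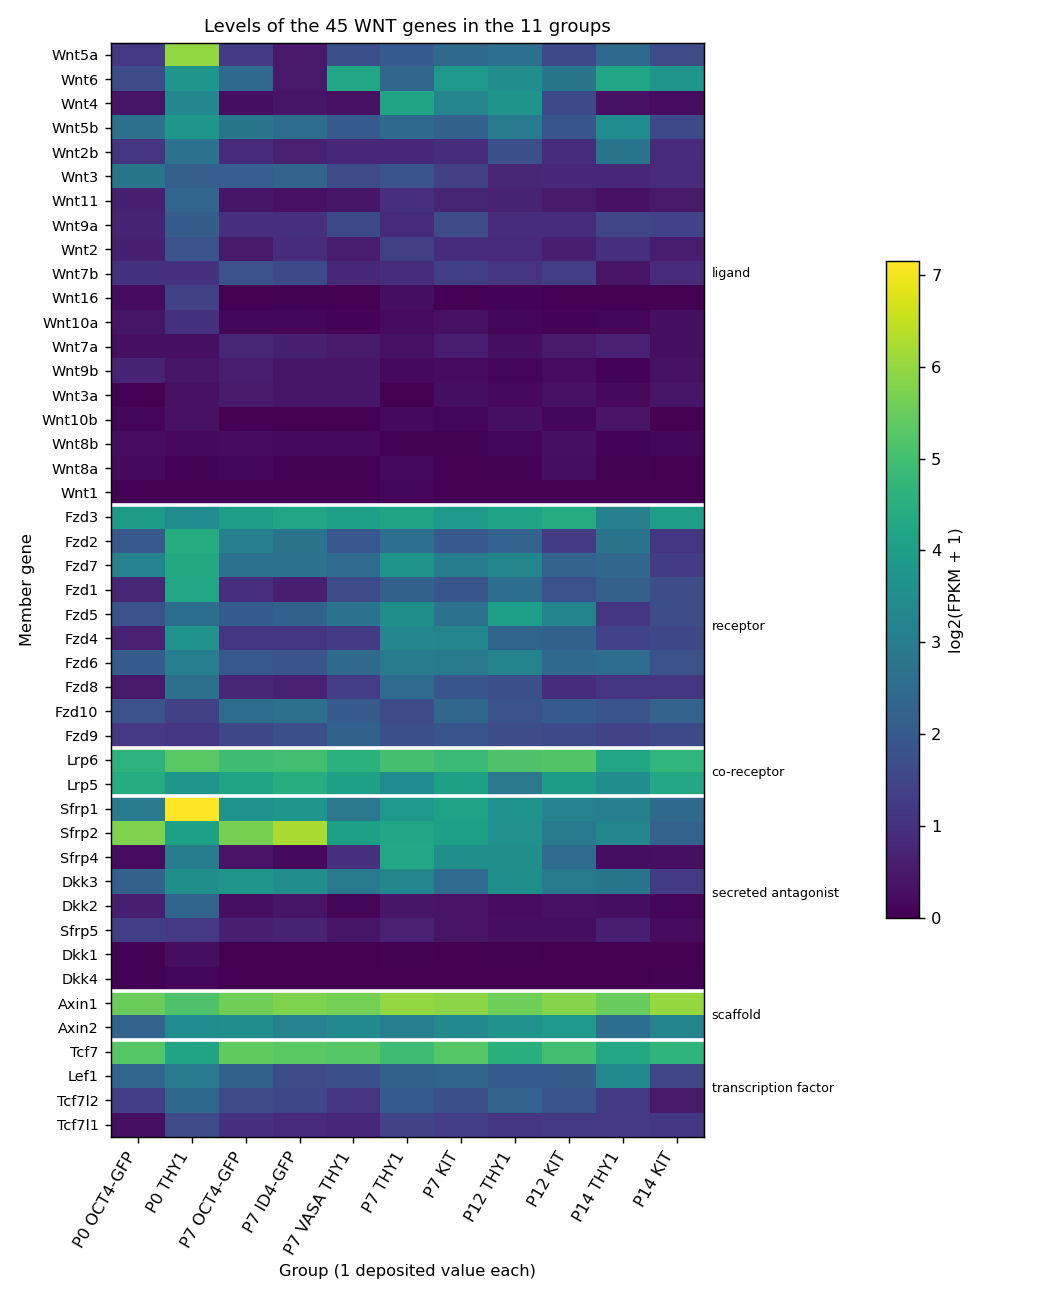
Levels of the 45 members, as log2(FPKM + 1), with genes in rows grouped by role and the 11 groups in columns, 1 deposited value each. Axin1, Tcf7, Lrp5, Lrp6 and Fzd3 are bright in most columns, the P0 THY1 column is bright for Wnt5a, Sfrp1 and several Frizzled genes, and the lower ligand rows are dark throughout.

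Among the ligands, 6 of 19 reached 5 FPKM, and each had its own pattern. Wnt5a, a ligand best known for signalling without beta-catenin, stood at 61.9 FPKM in P0 THY1. It lay between 0.399 FPKM in P7 ID4-GFP and 5.05 FPKM in P12 THY1 in all other columns, with 1.29 FPKM in P0 OCT4-GFP, 1.36 in P7 OCT4-GFP, 2.32 in P7 VASA THY1, 3.17 in P7 THY1, 4.47 in P7 KIT, 1.98 in P12 KIT, 4.43 in P14 THY1 and 2.16 in P14 KIT. The level of Wnt5a in P0 THY1 was therefore far outside the range of the other 10 columns, and this column also had the highest fibroblast and peritubular marker sums, 7091 and 1423 FPKM. The part of those cells in the level was not tested.

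Wnt4, a ligand of gonadal somatic cells, was high in P7 THY1 at 17.1 FPKM, P12 THY1 at 11.9, P0 THY1 at 9.09, P7 KIT at 8.48 and P12 KIT at 2.05 FPKM. It lay between 0.184 FPKM in P14 KIT and 0.333 FPKM in P7 ID4-GFP in the remaining 6 columns, with 0.326 FPKM in P0 OCT4-GFP, 0.210 in P7 OCT4-GFP, 0.246 in P7 VASA THY1 and 0.266 in P14 THY1. Wnt4 thus fell into 2 ranges that did not overlap, and the column labelled P7 VASA THY1 lay with the GFP columns and P14.

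Wnt6, a ligand of the beta-catenin branch in several epithelia, stood at 18.6 FPKM in P7 VASA THY1, 17.8 in P14 THY1, 13.1 in P7 KIT, 12.6 in P0 THY1, 12.2 in P14 KIT and 10.3 in P12 THY1. It was lower in P12 KIT at 5.85 FPKM, P7 OCT4-GFP at 4.45, P7 THY1 at 4.12, P0 OCT4-GFP at 2.12 and P7 ID4-GFP at 0.409 FPKM. The order followed neither age nor marker, and all 3 GFP-sorted columns lay under 5 FPKM.

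Wnt5b, the close relative of Wnt5a, varied less. It stood at 12.9 FPKM in P0 THY1, 10.1 in P14 THY1, 6.50 in P12 THY1, 5.91 in P7 OCT4-GFP, 5.23 in P0 OCT4-GFP, 4.70 in P7 ID4-GFP, 4.41 in P7 THY1, 3.66 in P7 KIT, 3.06 in P7 VASA THY1, 2.78 in P12 KIT and 2.04 in P14 KIT. At P7, P12 and P14 the KIT column stood below the THY1 column, and P7 VASA THY1 stood below P7 KIT. Wnt2b passed 5 FPKM in 2 columns, P14 THY1 at 5.85 and P0 THY1 at 5.66 FPKM, followed by P12 THY1 at 2.35 and P0 OCT4-GFP at 1.14 FPKM. In the other 7 columns it lay between 0.576 FPKM in P7 ID4-GFP and 0.910 FPKM in P12 KIT, with 0.752 FPKM in P7 VASA THY1, 0.772 in P7 THY1, 0.808 in P14 KIT, 0.856 in P7 OCT4-GFP and 0.893 in P7 KIT.

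Wnt3 was lower in the columns of P12 and P14 than in those of P0 and P7, with no strict order by age within these sets. It stood at 5.80 FPKM in P0 OCT4-GFP and 3.52 in P0 THY1, then at 3.85 in P7 ID4-GFP, 3.38 in P7 OCT4-GFP, 2.59 in P7 THY1, 2.08 in P7 VASA THY1 and 1.56 in P7 KIT. The 4 columns of P12 and P14 lay between 0.716 and 0.841 FPKM, with 0.716 in P12 THY1, 0.726 in P12 KIT, 0.747 in P14 THY1 and 0.841 in P14 KIT. All 7 columns labelled P0 or P7 were above all 4 columns of P12 and P14, where the age of P7 VASA THY1 is uncertain. The share of all genes that split this way was not counted. The part of the cell mix in the split was not tested. A further 6 ligands had their highest level between 1 and 5 FPKM: Wnt11 at 3.99, Wnt9a at 3.34, Wnt2 at 2.56, Wnt16 at 1.65 and Wnt10a at 1.09 FPKM, all in P0 THY1, and Wnt7b at 2.42 FPKM in P7 OCT4-GFP.

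The leading ligand therefore differed between groups. Summed over the 19 ligands, FPKM came to 121 in P0 THY1, of which Wnt5a made up 51.4%, and to between 16.0 in P7 ID4-GFP and 43.8 in P14 THY1 elsewhere. Wnt4 led in P7 THY1 with 45.6% and in P12 THY1 with 28.8% of the sum. Wnt6 led in P7 VASA THY1 with 58.1%, P14 KIT with 53.6%, P14 THY1 with 40.6%, P7 KIT with 34.0% and P12 KIT with 30.8%. In the GFP-sorted cells the leaders were Wnt3 at P0 with 28.4% and Wnt5b at P7 with 26.5% in OCT4-GFP and 29.5% in ID4-GFP.

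**Figure D2:**
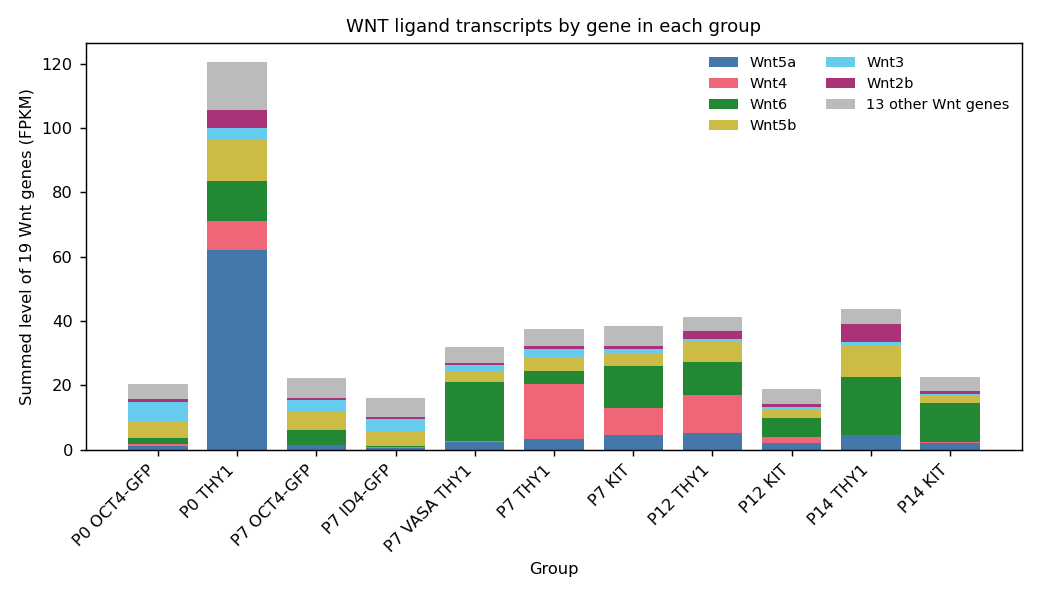
Summed level of the 19 Wnt ligands in FPKM for each of the 11 groups, as stacked bars that start at 0, with the leading ligands in colours of their own. The P0 THY1 bar reaches 121 FPKM, of which Wnt5a is 61.9 FPKM, and no other bar passes 43.8 FPKM.

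Fzd3, a receptor known for planar polarity in the nervous system, was the Frizzled gene with the highest level in 10 of the 11 columns. It ran from 7.69 FPKM in P14 THY1 and 10.2 in P0 THY1 to 20.5 in P12 KIT, with 13.8 FPKM in P0 OCT4-GFP, 14.8 in P7 OCT4-GFP, 17.2 in P7 ID4-GFP, 15.4 in P7 VASA THY1, 17.1 in P7 THY1, 13.5 in P7 KIT, 16.6 in P12 THY1 and 14.7 in P14 KIT. In P0 THY1 it was passed by Fzd2, Fzd7 and Fzd1, at 20.4, 19.1 and 18.4 FPKM. Fzd3 made up 22.4% of the Frizzled sum in P14 THY1 and 44.6% in P14 KIT.

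Fzd1 and Fzd2, both receptors linked to beta-catenin signalling, stood out in P0 THY1. Fzd1 was at 18.4 FPKM there and between 0.560 FPKM in P7 ID4-GFP and 5.04 FPKM in P12 THY1 elsewhere, with 0.715 in P0 OCT4-GFP, 0.993 in P7 OCT4-GFP, 2.17 in P7 VASA THY1, 3.62 in P7 THY1, 2.75 in P7 KIT, 2.43 in P12 KIT, 3.55 in P14 THY1 and 2.21 in P14 KIT. Fzd2 was at 20.4 FPKM in P0 THY1, then at 7.64 in P7 OCT4-GFP, 5.77 in P14 THY1, 5.72 in P7 ID4-GFP, 5.08 in P7 THY1, 3.76 in P12 THY1, 3.01 in P0 OCT4-GFP, 2.97 in P7 KIT, 2.82 in P7 VASA THY1, 1.40 in P12 KIT and 1.15 FPKM in P14 KIT. Unlike Fzd1, Fzd2 was thus above 5 FPKM in both P7 GFP columns.

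Fzd7, described as a receptor of stem cells in several tissues, stood at 19.1 FPKM in P0 THY1, 11.9 in P7 THY1, 8.76 in P12 THY1, 7.94 in P0 OCT4-GFP, 6.96 in P7 KIT, 5.51 in P7 OCT4-GFP, 5.50 in P7 ID4-GFP, 4.67 in P7 VASA THY1, 4.12 in P14 THY1, 3.76 in P12 KIT and 1.36 FPKM in P14 KIT. Its level was lower at each later age within the THY1 columns and within the KIT columns. Fzd4, the receptor of Norrin as well as of WNTs and a gene of endothelial cells, was at 11.7 FPKM in P0 THY1, 8.93 in P7 THY1, 8.53 in P7 KIT, 3.95 in P12 THY1 and 3.62 in P12 KIT. It did not pass 1.90 FPKM in the other 6 columns, with 0.578 in P0 OCT4-GFP, 1.14 in P7 OCT4-GFP, 1.13 in P7 ID4-GFP, 1.42 in P7 VASA THY1, 1.69 in P14 THY1 and 1.90 in P14 KIT. These are the same 5 columns in which Wnt4 was high.

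Fzd5, a receptor of the beta-catenin branch, was highest in P12 THY1 at 15.2 FPKM and P7 THY1 at 10.8 FPKM. It stood at 8.08 FPKM in P12 KIT, 5.58 in P7 VASA THY1, 5.42 in P7 KIT, 4.998 in P0 THY1, 3.64 in P7 ID4-GFP, 3.22 in P7 OCT4-GFP, 2.46 in P0 OCT4-GFP, 2.25 in P14 KIT and 1.16 in P14 THY1. The Sertoli cell sum also had its highest value, 1379 FPKM, in P12 THY1. In P14 THY1, where Fzd5 was lowest, that sum lay at 47.6 FPKM. The 2 did not run together in all columns. The Sertoli sum was lowest in P7 ID4-GFP at 18.6 FPKM, and it was 881 FPKM in P7 VASA THY1 against 661 in P7 THY1. The part of Sertoli cells was not tested. Fzd6, a planar polarity receptor, lay between 2.43 FPKM in P14 KIT and 8.10 FPKM in P12 THY1, with 3.22 in P0 OCT4-GFP, 7.36 in P0 THY1, 2.93 in P7 OCT4-GFP, 2.72 in P7 ID4-GFP, 4.54 in P7 VASA THY1, 6.70 in P7 THY1, 6.44 in P7 KIT, 4.45 in P12 KIT and 4.80 in P14 THY1.

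Fzd8 exceeded 2 FPKM in 4 columns, P0 THY1 at 5.18, P7 THY1 at 4.61, P7 KIT at 2.74 and P12 THY1 at 2.36 FPKM. In the others it stood at 0.403 FPKM in P0 OCT4-GFP, 0.586 in P7 ID4-GFP, 0.707 in P7 OCT4-GFP, 0.905 in P12 KIT, 1.12 in P14 THY1, 1.16 in P14 KIT and 1.45 in P7 VASA THY1. Fzd10 ran the other way, with its highest levels in the P7 GFP columns at 5.17 FPKM in ID4-GFP and 4.74 in OCT4-GFP, and its lowest in P0 THY1 at 1.60 FPKM. Between them lay P7 KIT at 4.14, P14 KIT at 3.78, P12 KIT at 3.22, P7 VASA THY1 at 3.19, P14 THY1 at 2.69, P12 THY1 at 2.51, P0 OCT4-GFP at 2.42 and P7 THY1 at 2.11 FPKM. Fzd9 was lowest in P0 THY1 at 1.17 FPKM and highest in P7 VASA THY1 at 3.61 FPKM.

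The co-receptors were among the steadiest members. Lrp6, which is phosphorylated when a WNT binds, lay between 17.6 FPKM in P14 THY1 and 38.9 FPKM in P0 THY1, with 23.5 in P0 OCT4-GFP, 29.3 in P7 OCT4-GFP, 30.3 in P7 ID4-GFP, 22.6 in P7 VASA THY1, 31.6 in P7 THY1, 28.2 in P7 KIT, 34.2 in P12 THY1, 36.2 in P12 KIT and 24.9 in P14 KIT. Lrp5, its close relative, lay between 6.07 FPKM in P12 THY1 and 20.7 FPKM in P7 ID4-GFP, with 20.1 in P0 OCT4-GFP, 12.3 in P0 THY1, 17.1 in P7 OCT4-GFP, 15.9 in P7 VASA THY1, 9.99 in P7 THY1, 15.6 in P7 KIT, 14.4 in P12 KIT, 10.4 in P14 THY1 and 18.9 in P14 KIT. The 4 lowest Lrp5 levels were those of the 4 THY1 columns other than P7 VASA THY1.

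Sfrp1, a secreted antagonist, reached the highest level of any member. It stood at 141 FPKM in P0 THY1 and between 4.58 FPKM in P14 KIT and 16.9 FPKM in P7 KIT in the other 10 columns, with 6.82 in P0 OCT4-GFP, 11.7 in P7 OCT4-GFP, 12.3 in P7 ID4-GFP, 6.18 in P7 VASA THY1, 13.1 in P7 THY1, 11.7 in P12 THY1, 7.99 in P12 KIT and 7.65 in P14 THY1. Sfrp2, whose promoter without the letters searched is printed above, was highest in the GFP-sorted columns at 74.8 FPKM in P7 ID4-GFP, 52.9 in P0 OCT4-GFP and 50.04 in P7 OCT4-GFP. The other 8 columns lay between 3.73 and 17.4 FPKM: 17.4 in P7 THY1, 16.0 in P0 THY1, 15.8 in P7 KIT, 15.7 in P7 VASA THY1, 11.1 in P12 THY1, 8.79 in P14 THY1, 6.58 in P12 KIT and 3.73 in P14 KIT. All 3 GFP-sorted columns were thus above all 8 bead-enriched or VASA THY1 columns. This split was noticed in the values, and the share of all genes that divide the columns in this way was not counted. Within the THY1 and KIT columns from P7 on, Sfrp2 stood lower at each later age.

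Sfrp4 split the columns as Wnt4 and Fzd4 did. It stood at 18.0 FPKM in P7 THY1, 10.7 in P7 KIT, 10.5 in P12 THY1, 7.11 in P0 THY1 and 4.59 in P12 KIT. In the remaining columns it was at 1.05 FPKM in P7 VASA THY1, 0.291 in P7 OCT4-GFP, 0.230 in P14 KIT, 0.194 in P14 THY1, 0.188 in P0 OCT4-GFP and 0.128 in P7 ID4-GFP. Dkk3, a divergent member of its family whose role in WNT signalling is debated, was the leading Dkk gene in every column. It stood at 12.7 FPKM in P7 OCT4-GFP, 10.8 in P0 THY1, 10.7 in P12 THY1, 10.3 in P7 ID4-GFP, 8.75 in P7 THY1, 6.38 in P7 VASA THY1, 6.36 in P12 KIT, 5.80 in P14 THY1, 4.62 in P7 KIT, 3.57 in P0 OCT4-GFP and 1.33 in P14 KIT. Dkk2 reached 3.91 FPKM in P0 THY1 and at most 0.519 FPKM elsewhere, Sfrp5 at most 1.53 FPKM, in P0 OCT4-GFP, and Dkk1, a classical inhibitor of the co-receptors, at most 0.194 FPKM.

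The leading gene of the SFRP family differed between groups. Sfrp2 made up 86.1% of the Sfrp sum in P0 OCT4-GFP, 80.0% in P7 OCT4-GFP, 85.2% in P7 ID4-GFP, 67.5% in P7 VASA THY1 and 51.3% in P14 THY1. Sfrp1 made up 85.2% in P0 THY1. In P7 THY1 the 3 leading genes were close, with Sfrp4 at 36.6%, and in P7 KIT, P12 THY1 and P12 KIT Sfrp1 led with 38.6%, 34.9% and 41.3%.

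**Figure D3:**
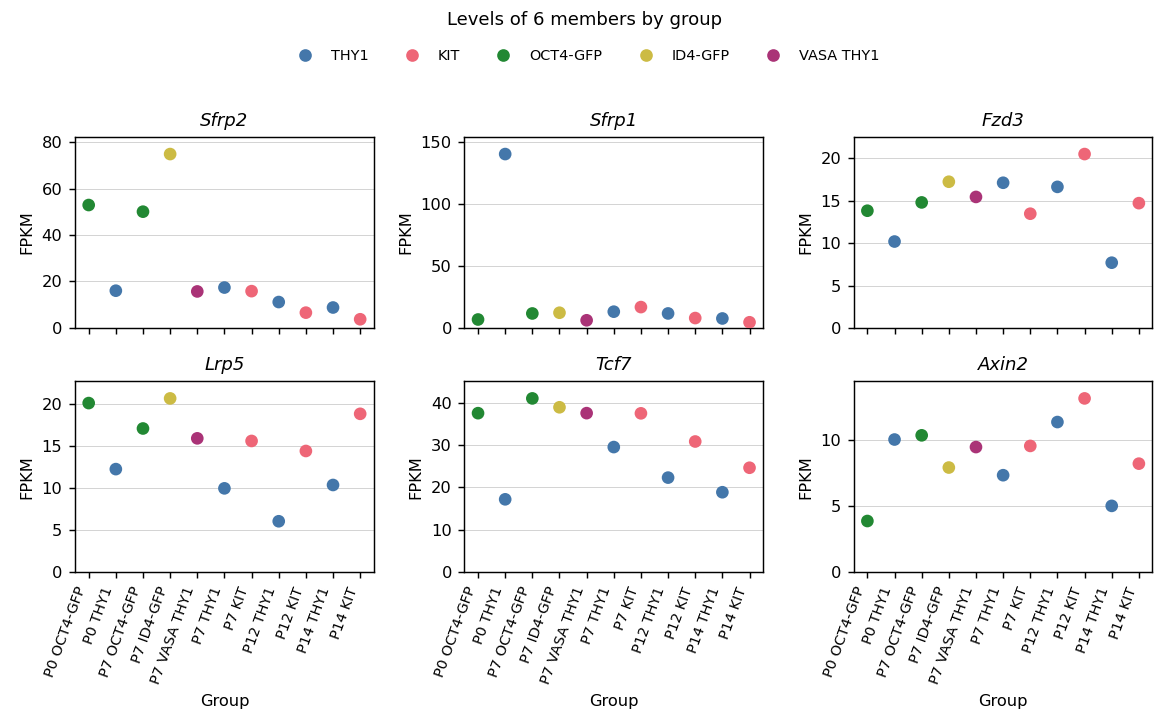
Levels of Sfrp2, Sfrp1, Fzd3, Lrp5, Tcf7 and Axin2 in FPKM, on linear axes that start at 0, with 1 deposited value per point for each of the 11 groups and colours for the selection of cells. Sfrp2 stands at 50.04 to 74.8 FPKM in the 3 GFP-sorted groups, Sfrp1 at 141 FPKM in P0 THY1, and the KIT points lie above the THY1 points of the same age for Lrp5, Tcf7 and Axin2.

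Axin1, the scaffold of the beta-catenin destruction complex, was at 34.5 FPKM or more in every column. It stood at 44.7 FPKM in P0 OCT4-GFP, 34.5 in P0 THY1, 46.9 in P7 OCT4-GFP, 53.1 in P7 ID4-GFP, 48.9 in P7 VASA THY1, 62.9 in P7 THY1, 59.1 in P7 KIT, 46.4 in P12 THY1, 56.2 in P12 KIT, 43.5 in P14 THY1 and 63.2 in P14 KIT. Axin2, a feedback target of beta-catenin that is widely read as a sign of pathway activity, stood at 3.88 FPKM in P0 OCT4-GFP and 5.03 in P14 THY1. It lay between 7.35 and 13.2 FPKM in the others: 10.1 in P0 THY1, 10.4 in P7 OCT4-GFP, 7.93 in P7 ID4-GFP, 9.48 in P7 VASA THY1, 7.35 in P7 THY1, 9.57 in P7 KIT, 11.4 in P12 THY1, 13.2 in P12 KIT and 8.23 in P14 KIT. The spread of Axin2 was thus modest beside that of the ligands.

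Tcf7, which encodes TCF1, was the leading TCF/LEF gene in every column. It stood at 41.0 FPKM in P7 OCT4-GFP, 38.9 in P7 ID4-GFP, 37.5 in each of P0 OCT4-GFP, P7 VASA THY1 and P7 KIT, 30.8 in P12 KIT, 29.5 in P7 THY1, 24.6 in P14 KIT, 22.3 in P12 THY1, 18.9 in P14 THY1 and 17.2 in P0 THY1. Its share of the TCF/LEF sum ran from 57.0% in P0 THY1 to 89.9% in P7 VASA THY1. Lef1 was highest in P14 THY1 at 9.74 FPKM, 31.2% of that sum, and in P0 THY1 at 6.51 FPKM. It stood at 4.02 FPKM in P0 OCT4-GFP, 3.91 in P7 KIT, 3.67 in P7 OCT4-GFP, 3.63 in P7 THY1, 3.33 in P12 KIT, 3.14 in P12 THY1, 2.36 in P7 VASA THY1, 2.14 in P7 ID4-GFP and 1.82 in P14 KIT. Tcf7l2 and Tcf7l1 reached at most 4.27 and 2.19 FPKM, both in P0 THY1.

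The first comparison set OCT4-GFP cells against THY1 cells at P0. It asks how cells picked by a germ cell reporter differ from cells picked by a surface protein at birth. In OCT4-GFP 20 of the 45 members were lower and 2 were higher. Over all genes measured 15.2% were lower and 8.14% higher, so the share of members that were lower, 44.4%, was well above the background and the share that were higher, 4.44%, was below it. The median difference of the members was -0.79, against -0.05 for all genes. The lower members were led by Wnt5a (1.29 against 61.9 FPKM, a log2 difference of -4.78), Sfrp1 (6.82 against 141 FPKM, -4.18), Fzd1 (0.715 against 18.4 FPKM, -3.50) and Fzd4 (0.578 against 11.7 FPKM, -3.00). Wnt4 was lower by a log2 difference of -2.93, Sfrp4 of -2.77, Fzd2 of -2.41, Fzd8 of -2.14 and Wnt6 of -2.12. The others were Wnt11, Dkk2, Wnt2b, Wnt9a, Tcf7l1, Dkk3, Wnt2, Axin2, Fzd7, Wnt5b and Tcf7l2, from -1.70 to -1.08. Sfrp2 (52.9 against 16.0 FPKM, 1.66) and Tcf7 (37.5 against 17.2 FPKM, 1.08) were the 2 higher members.

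Markers of other cells differed in the same comparison. All 10 fibroblast, all 8 peritubular, 7 of 8 endothelial, 7 of 8 Leydig and 7 of 11 Sertoli markers were lower in OCT4-GFP, with sums of 60.9 against 7091 FPKM for fibroblasts and 33.4 against 1423 FPKM for peritubular cells. Of the 8 germ cell markers 7 were higher, with sums of 1698 against 736 FPKM. None of 9 macrophage markers was counted either way, and their sums were high in both columns, at 341.6 against 380.2 FPKM. The part of these cells in the differences of the members was not tested. After quantile normalization 4 members were higher and 14 lower. The median change of log2(FPKM + 1) over all genes in P0 THY1 under this scaling was -0.15.

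The step from P0 to P7 was read in THY1 and in OCT4-GFP cells. In THY1 cells 10 members were lower at P7 and 1 was higher, against a background of 12.4% lower and 3.62% higher, and the median of the members was -0.27 against -0.06 for all genes. This comparison shares the P0 THY1 column with the one before it, so its values stand beside those and do not add to them. The lower members were Wnt5a (3.17 against 61.9 FPKM, -3.91), Sfrp1 (13.1 against 141 FPKM, -3.32), Fzd1 (-2.07), Wnt2b (-1.91), Dkk2 (-1.87), Fzd2 (-1.81), Wnt6 (-1.41), Wnt5b (-1.36), Wnt11 (-1.34) and Wnt9a (-1.26). Sfrp4 was higher, at 18.0 against 7.11 FPKM (1.23). All 10 fibroblast, all 8 peritubular and 7 of 9 macrophage markers were lower at P7 too, with fibroblast sums of 353 against 7091 FPKM, and 3 of 8 Leydig markers were lower, while none of 8 endothelial markers was counted. In the other direction 4 of 8 germ cell markers (1295 against 736 FPKM in sum) and 2 of 11 Sertoli markers (661 against 325 FPKM) were higher at P7. The part of these cells in the result, that of Sfrp4 included, was not tested. After quantile normalization 4 members were higher and 8 lower, and with P7 VASA THY1 in place of P7 THY1 there were 2 higher and 16 lower.

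In OCT4-GFP cells 3 members were higher at P7 and 0 were lower, against a background of 1.38% higher and 2.03% lower. They were Dkk3 (12.7 against 3.57 FPKM, a log2 difference of 1.59), Axin2 (10.4 against 3.88 FPKM, 1.22) and Fzd2 (7.64 against 3.01 FPKM, 1.11). The median of the members was 0.07 and that of all genes 0. Of the markers of other cells, 1 of 8 peritubular, 1 of 10 fibroblast and 1 of 11 Sertoli markers were higher, 1 Sertoli and 1 of 8 endothelial markers were lower, and no Leydig or macrophage marker was counted. At a 4-fold difference with a minimum of 5 FPKM 0 members were counted, and with a pseudocount of 0.1 in place of 1 there were 5.

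**Figure D4:**
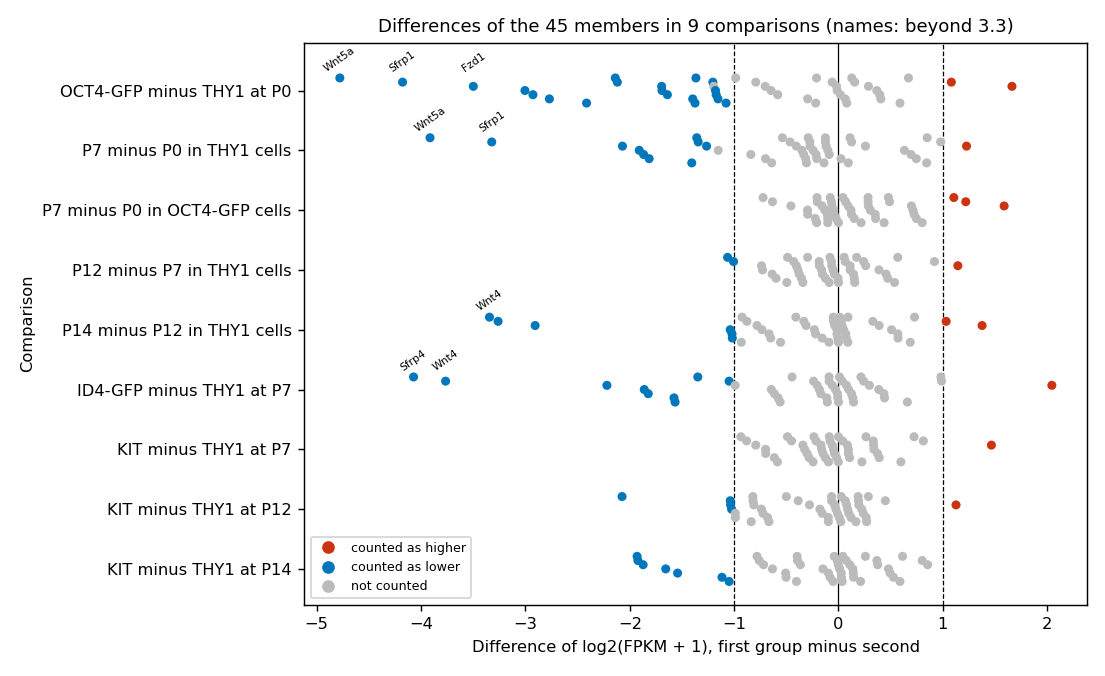
Difference of log2(FPKM + 1) for each of the 45 members in the 9 comparisons, first group minus second, with broken lines at the 2-fold bounds, coloured points for members counted as higher or lower, and names for those beyond 3.3. The points spread far to the left in the comparison of OCT4-GFP with THY1 at P0, where 20 members are lower, and stay near 0 for KIT against THY1 at P7, where 1 member is counted.

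At P7 the ID4-GFP cells, enriched for the earliest spermatogonia by a reporter, were set against THY1 cells. Again more members were lower than higher: 9 were lower and 1 was higher, against 8.87% lower and 4.67% higher over all genes, and the median of the members was -0.09. Sfrp2 was higher at 74.8 against 17.4 FPKM (2.04), as it was in OCT4-GFP at P0. The lower members were Sfrp4 (0.128 against 18.0 FPKM, -4.07), Wnt4 (0.333 against 17.1 FPKM, -3.77), Fzd4 (1.13 against 8.93 FPKM, -2.22), Wnt6 (-1.86), Fzd8 (-1.82), Wnt5a (-1.58), Fzd1 (-1.57), Fzd5 (-1.35) and Fzd6 (-1.05). No transcription factor, scaffold or co-receptor was counted.

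In the same columns all 8 endothelial, all 8 peritubular, 7 of 8 Leydig, 8 of 10 fibroblast, 8 of 11 Sertoli and 7 of 9 macrophage markers were lower in ID4-GFP. Their sums were 7.97 against 145 FPKM for endothelial and 18.6 against 661 FPKM for Sertoli cells, and their part in the result was not tested. After quantile normalization 3 members were higher and 8 lower. With P7 VASA THY1 in place of P7 THY1 4 members were counted, 1 higher and 3 lower, all of them among the 10.

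From P7 to P12 the THY1 columns differed little in these genes. Wnt6 was higher at P12 (10.3 against 4.12 FPKM, 1.14), and Wnt3 (0.716 against 2.59 FPKM, -1.06) and Fzd4 (3.95 against 8.93 FPKM, -1.01) were lower. That is 1 of 45 members higher and 2 lower, against a background of 3.65% and 1.48%, with member and gene medians of -0.07 and 0. Of the markers, 7 of 11 Sertoli, 4 of 8 peritubular and 5 of 9 macrophage genes were higher at P12, with Sertoli sums of 1379 against 661 FPKM, and 1 of 8 endothelial markers was lower; their part was not tested. With P7 VASA THY1 in place of P7 THY1, 5 members were higher and 1 lower, and none of the 3 members above was among them, so this comparison turned on which P7 column was used. At 4-fold with a minimum of 5 FPKM 0 members were counted. The comparisons that use P7 THY1 share that column.

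From P12 to P14 the THY1 columns differed more. Of the 45 members 2 were higher at P14, Lef1 (9.74 against 3.14 FPKM, 1.38) and Wnt2b (5.85 against 2.35 FPKM, 1.03). Another 6 were lower: Wnt4 (0.266 against 11.9 FPKM, -3.34), Sfrp4 (0.194 against 10.5 FPKM, -3.26), Fzd5 (1.16 against 15.2 FPKM, -2.91), Axin2 (-1.04), Fzd3 (-1.02) and Tcf7l2 (-1.02). The background was 8.7% higher and 9.95% lower, against 4.44% and 13.3% of the members, so neither share stood far from that of all genes. All 11 Sertoli, 7 of 8 endothelial and 6 of 8 peritubular markers were lower at P14, with Sertoli sums of 47.6 against 1379 FPKM, while 7 of 10 fibroblast markers were higher, with sums of 1542 against 536 FPKM. Of the 8 germ cell markers 3 were higher and 0 lower, with sums of 2292 against 1252 FPKM. Lower too were 3 of 9 macrophage markers and 1 fibroblast marker, while 2 of 8 Leydig markers were higher and 2 lower. The part of all these cells was not tested, and P14 THY1 stood for 1 library.

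KIT and THY1 cells were compared at 3 ages, with no column used more than once. The selecting proteins mark differentiating and undifferentiated spermatogonia, but the columns were not shown to differ in that step alone. Of 8 germ cell markers, 0 were higher and 1 lower in KIT at P7, 1 and 1 at P12, and 1 and 2 at P14. Dkkl1, known from spermatocytes, stood at 11.6 FPKM in P14 KIT against 367 FPKM in P14 THY1. At P7 only Wnt6 was counted, higher in KIT (13.1 against 4.12 FPKM, 1.47), that is 1 member higher and 0 lower against 1.57% and 1.8% of all genes. At P7 also 7 of 8 Leydig markers were higher in KIT, with sums of 1136 against 127 FPKM, and their part in the level of Wnt6 was not tested. With P7 VASA THY1 in place of P7 THY1, 4 members were higher in KIT and Wnt6 was not one of them. The count was 3 with a pseudocount of 0.1 and 0 at 4-fold with a minimum of 5 FPKM.

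At P12 Lrp5 was higher in KIT (14.4 against 6.07 FPKM, 1.13), and Wnt4 (2.05 against 11.9 FPKM, -2.07), Fzd7 (3.76 against 8.76 FPKM, -1.04), Sfrp4 (4.59 against 10.5 FPKM, -1.03) and Wnt5a (1.98 against 5.05 FPKM, -1.02) were lower. These were 1 member higher and 4 lower, against 2.65% and 3.66% of all genes, and after quantile normalization 1 higher and 2 lower. With a pseudocount of 0.1 there were 10 members in all, and at 4-fold with a minimum of 5 FPKM there was 1. All 8 peritubular, 8 of 9 macrophage, 8 of 11 Sertoli and 6 of 10 fibroblast markers were lower in KIT at P12, and 5 of 8 Leydig markers were higher; their part was not tested.

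At P14 no member was higher in KIT and 7 were lower, against 4.57% and 8.92% of all genes. Lef1 (1.82 against 9.74 FPKM, -1.93), Wnt2b (0.808 against 5.85 FPKM, -1.92) and Wnt5b (2.04 against 10.1 FPKM, -1.87) came first, followed by Fzd2 (-1.66), Dkk3 (-1.54), Fzd7 (-1.12) and Sfrp2 (-1.05). In these columns 9 of 10 fibroblast, 5 of 8 peritubular and 7 of 9 macrophage markers were lower in KIT, with fibroblast sums of 432 against 1542 FPKM, and 6 of 8 Leydig markers were higher; their part was not tested. Both P14 columns stood for 1 library each, and at 4-fold with a minimum of 5 FPKM 0 members were counted.

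Across the 3 ages, 4 members were above THY1 in KIT each time, by any amount, and reached 2 FPKM in any of the 6 columns: Axin2 by 0.34, 0.19 and 0.61 on the log2 scale at P7, P12 and P14, Tcf7 by 0.33, 0.45 and 0.37, Lrp5 by 0.60, 1.13 and 0.80, and Fzd10 by 0.72, 0.27 and 0.38. These differences were mostly under 2-fold, and 14.9% of all genes met the same rule, so 4 of 45 is not above the background. Another 9 members were below THY1 at each age, Dkk3, Fzd1, Fzd2, Fzd6, Fzd7, Sfrp2, Tcf7l2, Wnt4 and Wnt5b, where 13% of all genes met the rule. After quantile normalization Wnt9a joined the first set and Wnt4 left the second. Both sets turned on the P7 column used. Set against P7 VASA THY1, Axin2 and Fzd10 were still higher in P7 KIT. Lrp5 (15.6 against 15.9 FPKM) and Tcf7 (37.46 against 37.51 FPKM) were not. Of the second set only Dkk3 was still lower in P7 KIT (4.62 against 6.38 FPKM). All others of that set were above P7 VASA THY1, from Sfrp2 (15.84 against 15.71 FPKM) to Wnt4 (8.48 against 0.246 FPKM).

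The split seen for Wnt4 was shared by 4 members in all, a pattern chosen after the values were seen. In the THY1 columns of P0, P7 and P12 and the KIT columns of P7 and P12, 5 in all, the lowest level of Wnt4, 2.05 FPKM, was above the highest of the other 6 columns, 0.333 FPKM. The same bounds were 4.59 and 1.05 FPKM for Sfrp4, 3.62 and 1.90 FPKM for Fzd4 and 2.36 and 2.19 FPKM for Tcf7l2. With FPKM of 2 or more in each of the 5 columns, 3.58% of all genes split the columns in this way, and after quantile normalization Fzd4 and Sfrp4 still did. The 5 columns are those that stand for 2 libraries, and the other 6 stand for 1 library each, so the number of libraries cannot be told apart from what else these columns share. P14 THY1 and P14 KIT were also selected by beads and lay with the 6 columns (Wnt4 at 0.266 and 0.184 FPKM). At P14 the age and the number of libraries cannot be told apart, and the part of bead selection was not tested. Of the 7 marker lists, only the endothelial sum separated the 5 columns (54.3 to 211 FPKM) from the 6 (7.65 to 27.7 FPKM). Of its 8 genes 6 did so singly, as did 1 of 8 Leydig genes and no gene of the other lists. The Sertoli sum did not separate the columns, with 881 FPKM in P7 VASA THY1 and 661 FPKM in P7 THY1. In these columns Wnt4 stood at 0.246 and 17.1 FPKM and Sfrp4 at 1.05 and 18.0 FPKM. Within the 5 columns the endothelial sum, Fzd4 and Tcf7l2 were highest in P0 THY1, and Wnt4 and Sfrp4 in P7 THY1. The part of endothelial or of Sertoli cells was not tested.

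**Figure D5:**
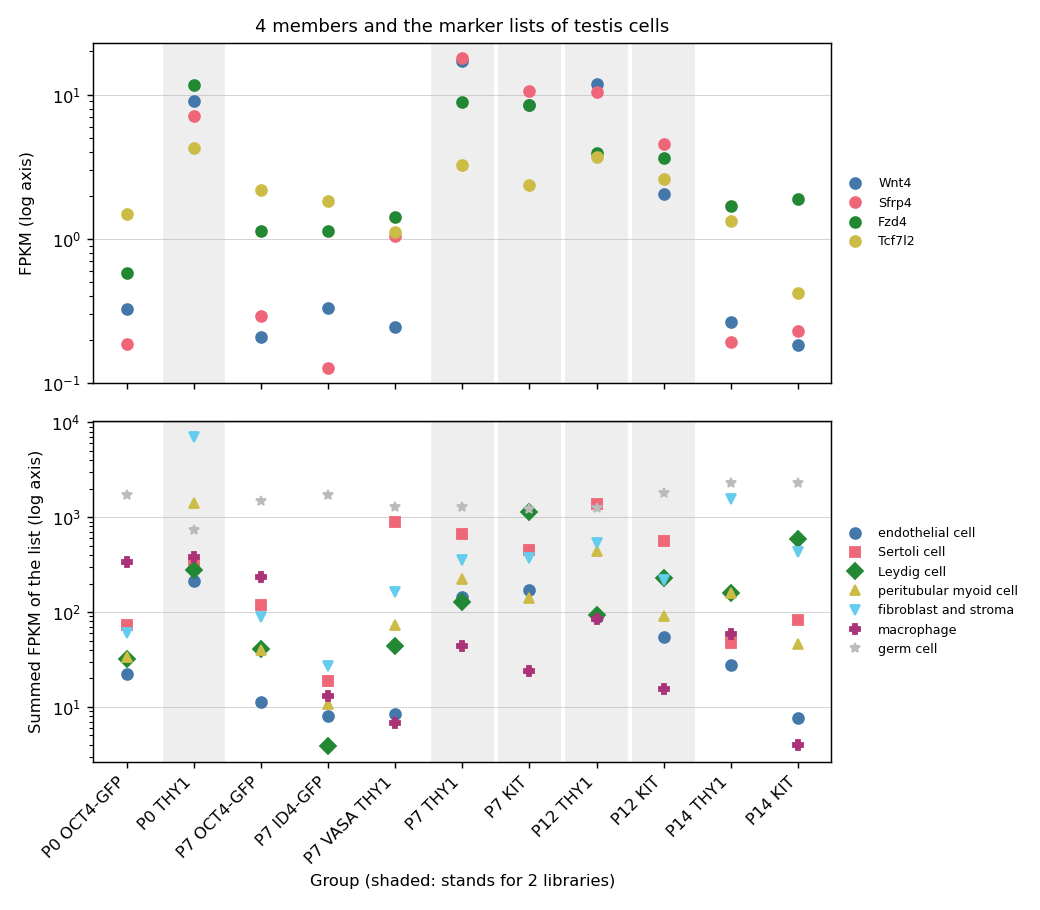
Levels of Wnt4, Sfrp4, Fzd4 and Tcf7l2 (top) and summed levels of 7 marker lists (bottom) in FPKM, on log axes, for each of the 11 groups, with shading for the 5 groups that stand for 2 libraries. The 4 members and the endothelial sum (54.3 to 211 FPKM) are higher in all shaded groups than in any other group, and P7 VASA THY1 has a Sertoli sum of 881 FPKM with Wnt4 at 0.246 FPKM.

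Other genes of the pathway were read from a list of 69 genes for WNT secretion, reception, transduction and feedback, of which 68 were in the table, 2 of them under an older symbol. Core components were present in every column: Ctnnb1, which encodes beta-catenin, lay between 198 and 371 FPKM, and Csnk1a1, a kinase of the destruction complex, between 135 and 223 FPKM. In OCT4-GFP against THY1 at P0, 5 of the 68 genes were higher and 21 lower, with a median of -0.43, against 8.14% and 15.2% of all genes and a median of -0.05. Among the lower were Wls, the carrier needed to secrete WNTs, at 2.69 against 50.6 FPKM (-3.81), and Myc at 0.681 against 20.0 FPKM (-3.64). The R-spondin Rspo1, which strengthens the WNT response, stood at 0.597 against 16.0 FPKM (-3.42). Rspo3 was listed at 0 in OCT4-GFP and stood at 21.5 FPKM in THY1. The higher genes included Ccnd1, at 61.3 against 23.7 FPKM. The part of other testis cells in the levels of the 68 genes was not tested in any comparison. From P0 to P7 in THY1 cells 2 of the 68 were higher and 18 lower, against 3.62% and 12.4% of all genes. Here Rspo2 stood at 11.2 against 1.09 FPKM (2.55), Rspo3 at 0.262 against 21.5 FPKM (-4.16), Rspo1 at 1.00 against 16.0 FPKM (-3.09) and Dact3 at 2.12 against 16.8 FPKM (-2.51). The R-spondin with the higher level thus differed between the P0 and P7 THY1 columns.

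In ID4-GFP against THY1 at P7, 4 of the 68 genes were higher and 5 lower, against 4.67% and 8.87% of all genes, so both counts were near the background. The lower ones included Myc at 0.121 against 21.8 FPKM (-4.34), Wls at 0.639 against 18.4 FPKM (-3.56), and the formin-type polarity genes Daam2 at 2.07 against 18.9 FPKM (-2.70) and Daam1 at 6.09 against 29.3 FPKM (-2.10). Wls was lower in the GFP-sorted cells in both comparisons in which they were set against THY1. Ccnd1 was higher in both, here at 61.1 against 17.4 FPKM. For P7 against P0 in OCT4-GFP 4 of the 68 were higher and 2 lower, against 1.38% and 2.03% of all genes. In THY1 cells the counts were 4 and 0 for P12 against P7, beside 3.65% and 1.48% of all genes, and 4 and 13 for P14 against P12, beside 8.7% and 9.95%. For KIT against THY1 they were 2 and 1 at P7, beside 1.57% and 1.8% of all genes, 2 and 2 at P12, beside 2.65% and 3.66%, and 4 and 8 at P14, beside 4.57% and 8.92%. From P12 to P14 in THY1 cells Daam2 stood at 4.06 against 62.5 FPKM (-3.65), the kinase Tnik at 2.80 against 22.0 FPKM (-2.60) and Myc at 2.74 against 20.2 FPKM (-2.50).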

How the data were processed

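Ribosomal RNA was removed from total RNA before strand-specific library preparation, per the labels' protocols. The authors deposited FPKM values in 1 table of 20889 gene symbols and 11 columns, 1 for each group. Per the submitters' processing notes, CASAVA, TopHat2 2.0.9, Cufflinks 2.1.1 and build mm9 were used, in no stated order or role; annotation, scaling and how 2 libraries became 1 column are not given in the sources used here. Of the 30 samples in the series, the 16 RNA libraries stand behind the table, and the bisulfite and chromatin samples were not analysed here.

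Differences of log2(FPKM + 1) were computed from the deposited FPKM with Python 3.11.15, numpy 2.4.6 and pandas 2.3.3, and plotted with matplotlib 3.10.9. The counting code was run on copies of columns in which chosen genes were changed by a set factor. That checks the code and says nothing on the error of the counts. The members, lists and comparisons were chosen with earlier results of these data known. Members that reached 5 FPKM are given in every column, the others, among them Tcf7l1 and Tcf7l2, by highest level. Other pathway genes are named in comparisons at 4-fold with FPKM of 5 or more, at most 4 per comparison. Ccnd1 was added as a gene with the other direction. Alternatives were another pseudocount, minimum, fold and scaling, and another P7 column. Genes under 0.05 FPKM fall in steps that may stand for whole fragments; set against P14 THY1 the step measured 0.957 to 2.04 times as much in 9 columns and, uncertainly, 3.72 times in P7 THY1, so low values there may rest on the fewest fragments. Promoter sequences come from RefSeq on GRCm38.p6, and no coordinates of mm9 were used.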

Additional observations from a re-analysis of the deposited data

Results flagged for a closer look

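Members were searched for differences of opposite sign between groups under the same contrast. A case was kept if both log2 differences were 0.5 or more in size and at least 1 of them was counted. That gave 5 cases, and members with smaller opposite differences are not listed here. With 1 value per group, none of these opposite signs was tested.

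For Wnt6 the log2 difference of KIT minus THY1 was 1.47 at P7, past the 2-fold bound, and -0.72 at P12 and -0.51 at P14, both short of it. The P7 difference exceeded that of P12 by 2.19 and that of P14 by 1.97. The direction at P7 turned on the column used, since Wnt6 stood at 13.1 FPKM in P7 KIT, 4.12 FPKM in P7 THY1 and 18.6 FPKM in P7 VASA THY1.

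For P7 minus P0, 3 members had a negative difference past the 2-fold bound in THY1 cells and a positive one in OCT4-GFP cells, which passed the bound for Fzd2 alone. Sfrp1 differed by -3.32 in THY1 and 0.70 in OCT4-GFP, a gap of -4.02. Fzd2 differed by -1.81 and 1.11, a gap of -2.92, and Wnt6 by -1.41 and 0.80, a gap of -2.21; P7 VASA THY1 (18.6 FPKM) stood above P0 THY1 (12.6 FPKM) for Wnt6, so its sign in THY1 cells also turned on the P7 column. P0 THY1 had the highest fibroblast marker sum of all columns, and its part in these gaps was not tested.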

How the results depend on the processing

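No comparison has replicates, so precision rests on depth that the table does not give. At 4-fold with FPKM of 5 or more, members counted in OCT4-GFP against THY1 at P0 went from 22 to 9, in P7 against P0 from 11 to 3 for THY1 and from 3 to 0 for OCT4-GFP, in THY1 cells from 3 to 0 for P12 against P7 and from 8 to 3 for P14 against P12, and in ID4-GFP against THY1 from 10 to 4. For KIT against THY1 they went from 1 to 0 at P7, 5 to 1 at P12 and 7 to 0 at P14. A pseudocount of 0.1 gave 5 in P7 against P0 in OCT4-GFP, and 3 at P7 and 10 at P12 in KIT against THY1. Its other 6 counts stayed within 1.5 times, as did all 9 without a minimum level and 8 of 9 after quantile normalization, which gave 3 in KIT against THY1 at P12. P7 VASA THY1 in place of P7 THY1 gave 18 in P7 against P0 (8 shared with the main count), 6 in P12 against P7 (0 shared), 4 in ID4-GFP against THY1 (4 shared) and 4 in KIT against THY1 at P7 (0 shared). The fold, pseudocount and level rules move counts by construction; for the other column the cause was not tested. No member counted in any of the 9 comparisons had the other sign after quantile normalization. No paired analysis was possible because each group has 1 value and the replicate numbers of the labels have no columns; for the same reason no replicate could be left out.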

Other observations

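Dkkl1, a relative of the Dkk genes that is known from spermatocytes and the acrosome of sperm and does not belong to the 45 members, stood at 367 FPKM in P14 THY1. It was at 3.996 FPKM in P12 THY1 (a log2 difference of 6.20) and at 11.6 FPKM in P14 KIT (-4.87), and no other column passed 11.6 FPKM. P14 THY1 stood for 1 library.

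The R-spondins, secreted proteins that strengthen the WNT response, differed from one another in where they were highest. Rspo1 (16.0 FPKM) and Rspo3 (21.5 FPKM) had their highest level in P0 THY1, Rspo2 in P7 ID4-GFP at 15.7 FPKM and Rspo4 in P7 OCT4-GFP at 9.60 FPKM. Rspo3 did not pass 0.413 FPKM in any column other than P0 THY1. Of their receptors, Lgr4 lay between 4.61 FPKM in P0 OCT4-GFP and 38.9 FPKM in P12 THY1, whereas Lgr5 did not pass 0.653 FPKM. These genes of the pathway list were singled out after their values were seen.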
